A study of Homo sapiens with 6 samples.

Results

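The nuclear genes of the respiratory chain were taken from a comparison of PANC-1 cells with and without knockdown of SOX9. Members were the rows of the gene table whose symbol starts with NDUFA, NDUFB, NDUFC, NDUFS, NDUFV, UQCR, COX4, COX5, COX6, COX7, COX8 or ATP5, together with SDHA, SDHB, SDHC, SDHD and CYC1. Of 100 symbols that matched, 13 were dropped: 8 NDUFAF symbols (complex I assembly factors and a pseudogene of theirs), 3 with a hyphen and 2 pseudogenes. The 87 members left are 87 of 19830 genes in the table.

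The groups were PANC-1 cells transfected with 25 nM SOX9 siRNA (2 libraries) and PANC-1 cells transfected with 25 nM control siRNA (2 libraries), both with Lipofectamine 3000. Transfected cells were pooled for harvest at 48 hours. PANC-1 is a human cell line grown out of a pancreatic ductal adenocarcinoma, and SOX9 is a transcription factor of pancreatic duct and progenitor cells. It is a single tumour line in culture, with no other cell types around it. Total RNA went into stranded libraries with a depth of at least 60000000 reads each, per the labels. Separate cultures are not stated for the libraries of a group, so p-values measure only the spread between libraries and that spread may be technical.

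The values are the authors' DESeq2 comparison, which gives each gene a mean normalized count over all 4 libraries and a log2 fold change (log2FC) with a standard error. Values per library are not used here, so the spread is known through the standard error only, and no group level can be printed. Fold changes are read as SOX9 siRNA over control siRNA because SOX9, the siRNA target, was negative per the authors' deposited table, at a log2FC of -0.84 (standard error 0.26, adjusted p 0.0643). SOX9 therefore cannot check the labels, its own change did not pass the threshold, and each direction below would turn if that reading were wrong. The 6 markers listed for the line, KRT8, KRT18, KRT19, EPCAM, CDH1 and VIM, had mean normalized counts from 1426 to 203350 per the authors' deposited table. Of these, 1 was called: EPCAM, an epithelial adhesion protein, fell with a log2FC of -1.76 and a DESeq2 adjusted p of 1.85e-05 per the authors' deposited table. The other 5 had positive values and were not called: the log2FC was 0.55 for KRT8, 0.50 for KRT18, 0.50 for KRT19, 0.63 for CDH1 and 0.05 for VIM per the authors' deposited table. Over all 6 markers the median was 0.50. CDH1, E-cadherin, had a standard error of 0.77 per the authors' deposited table, 3.99 times the median of genes at its count. Fewer cells that express a gene and less of its RNA per cell cannot be told apart in such bulk samples. The part of these marker values in the members' results was not tested. Of 10 markers of leukocytes, endothelium, fibroblasts, islets and acini, 8 were in the table and 1 was tested, and the other 7 had mean normalized counts of 4.37 or less per the authors' deposited table. The marker tested was CD14, with a log2FC of 1.21 and an adjusted p of 0.44 at a mean normalized count of 52.2 per the authors' deposited table.

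The respiratory chain sits in the inner mitochondrial membrane. Complexes I and II pass electrons from NADH and succinate to ubiquinone, complex III passes them to cytochrome c, and complex IV, cytochrome c oxidase, passes them to oxygen. The proton gradient built on the way drives complex V, the ATP synthase. Most subunits are encoded in the nucleus and a few, which were not analysed here, in mitochondrial DNA.

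Most of the respiratory chain genes had nearly the same level in SOX9 siRNA and control siRNA cells. Of the 87 members 83 had an adjusted p-value and are called tested. The other 4 had mean normalized counts of 6.63 or less. Among the 83 tested members, 2 fell and 0 rose by the authors' DESeq2 test, taken at an adjusted p under 0.05. The members that fell were ATP5SL and COX7A2. The 2 falls are 2.41% of the tested members, while 1.81% of all 14063 tested genes were called, 0.939% as lower and 0.868% as higher, so the count is near the background. At an unadjusted p under 0.05 there were 4 members, or 4.82%, against 11.1% of all tested genes.

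The median log2 fold change of the tested members was -0.03, beside -0.02 for all tested genes, and the middle 50% of members lay between -0.11 and 0.08, beside -0.20 and 0.18 for all tested genes. By point estimate 78 of 83 members, 94.0%, stood between 80% and 125% of control, beside 72.0% of all tested genes. These genes are highly counted, so the same was set beside the 3516 tested genes with the highest mean counts, of at least 3373. That class holds 58 of the members, and 94.8% of those 58 stood between 80% and 125% of control, beside 81.1% of the class. Their median was -0.03, beside -0.07 for the class. Related mitochondrial gene lists, described below, held 93 tested genes, of which 84.9% stood between 80% and 125% of control. By list this share ran from 66.7% of 3 complex V assembly factors to 100% of 22 complex IV assembly factors. It was 92.9% for the 14 genes of the tricarboxylic acid cycle, so a small spread is not particular to the members. No test of these differences was made, since the members were chosen with earlier results known.

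**Figure D1:**
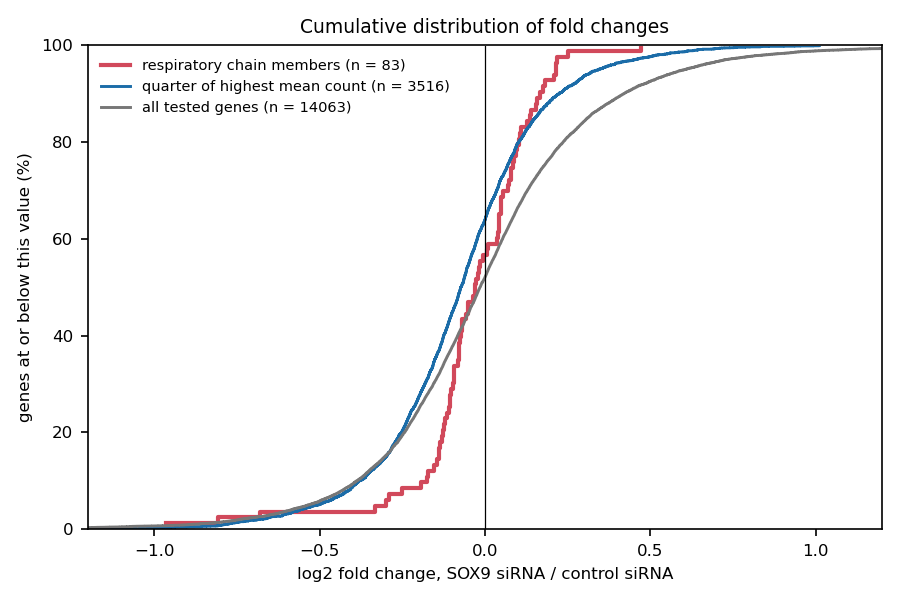
Cumulative share of genes (vertical axis, %) by log2 fold change, SOX9 siRNA over control siRNA (horizontal axis), for the 83 tested members, the 3516 tested genes with the highest mean counts and all 14063 tested genes. The members' curve is the steepest, with 50% of them between -0.11 and 0.08, and a small tail of 3 members, ATP5SL, COX7A2 and NDUFB5, lies at -0.68 or lower.

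The intervals of most of these genes were narrow. The members' mean normalized counts ran from 29.5 to 57177, with 79 of 83 at 1000 or more, and their median standard error was 0.16 on the log2 scale. For 71 of 83 members, 85.5%, the 95% interval (1.96 standard errors each way) lay wholly within a 1.5-fold change in either direction, beside 40.3% of all tested genes and 65.9% of the highest count class. Of the 58 members in that class, 52, or 89.7%, met this bound. Of the 93 tested genes of the related lists 63.4% met it. The share was 85.7% for the tricarboxylic acid cycle, 86.4% for complex IV assembly factors and 33.3% for complex III assembly factors. For each of the 71, taken singly, the interval itself leaves out a change of 1.5-fold or more. Like the p-values, these intervals rest on a spread between libraries that may be technical. Variation between cultures may be missing from them, so a change of that size is not excluded. The 12 members whose interval reached past 1.5-fold were ATP5SL, COX7A2, NDUFB5, NDUFA5, SDHA, SDHC, COX5B, COX8A, ATP5G1 and the 3 low-count isoforms COX6B2, COX7A1 and NDUFA4L2.

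**Figure D2:**
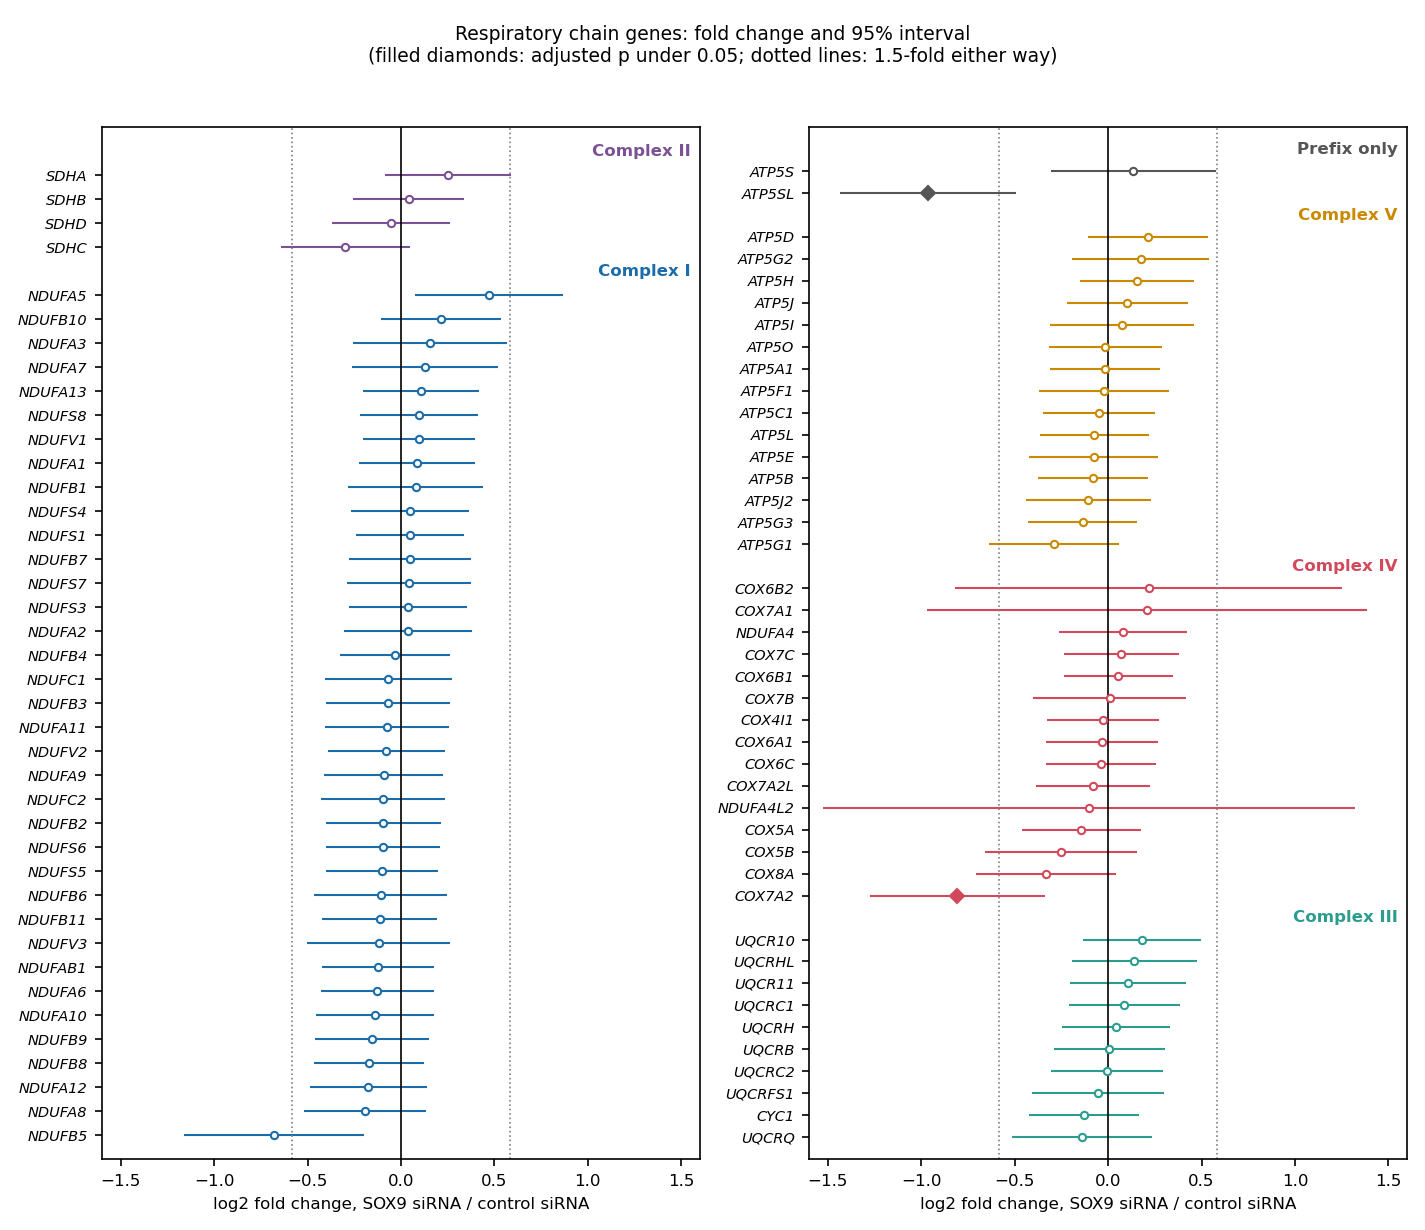
Log2 fold change, SOX9 siRNA over control siRNA (horizontal axis), of the tested members, ordered within each complex. The member left out of the text is not shown. Points are the authors' estimates, bars 95% intervals, and dotted lines mark 1.5-fold either way. Filled diamonds mark ATP5SL and COX7A2, the 2 members at an adjusted p under 0.05, and most bars lie between the dotted lines.

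COX7A2 encodes the widely expressed form of subunit 7a of cytochrome c oxidase, a small protein at the edge of complex IV. COX7A2 fell to 57.2% of control per the authors' deposited table (95% interval 41.3% to 79.2%), at a mean normalized count of 7537. The log2 fold change of COX7A2 was -0.81 with a standard error of 0.24 and a DESeq2 adjusted p of 0.0451 per the authors' deposited table. This call is close to the threshold: the adjusted p of COX7A2 was 0.0633 with p-values adjusted over every gene in the table and 0.0519 with fold changes centred on their median. The relatives of COX7A2 did not pass. COX7A2L, a related protein that joins complexes III and IV into supercomplexes, had a log2FC of -0.08 (95% interval -0.38 to 0.22) per the authors' deposited table. COX7A1, the form of heart and skeletal muscle, had a log2FC of 0.21 per the authors' deposited table, with an interval from -0.97 to 1.38 at a mean normalized count of 33.8.

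ATP5SL, now named DMAC2, shares the ATP5 prefix but is no ATP synthase subunit: it is known as an assembly factor of the membrane arm of complex I. ATP5SL fell to 51.3% of control per the authors' deposited table (95% interval 37.0% to 71.2%), with a log2FC of -0.96, a standard error of 0.24 and a DESeq2 adjusted p of 0.00877. Its mean normalized count was 1102. The calls of ATP5SL and COX7A2 were both lost under an empirical null, which called 0 members and 96 of all 14063 tested genes. ATP5S, now DMAC2L, a related protein once described as a coupling factor of the ATP synthase, had a log2FC of 0.13 (95% interval -0.31 to 0.58) per the authors' deposited table. With the 81 symbols that encode structural subunits alone, COX7A2 was the 1 called of 78 tested, beside 1.81% of all tested genes.

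Promoters of respiratory chain genes are known for sites of NRF1, of ETS factors such as GABPA, of the ERR receptors and of YY1. RefSeq start sites (GRCh38.p14) were found for 69 of the 87 members, with 83 windows of 300 bases, from 250 before to 50 after a start. Short motifs were searched on both strands: TGCGCA as the core of NRF1 sites (the same on both strands), CCGGAAG for ETS, TGACCTT for ERR, AAGATGG for YY1 and ACAAT for SOX factors. None of these motifs contains another. The NRF1 core was in 26.5% of the members' windows, beside 12.0% of the windows of tested genes and 8.24% of all 35116 windows. ETS was in 25.3%, beside 16.5% and 10.3%, ERR in 13.3%, beside 2.69% and 3.92%, and YY1 in 22.9%, beside 6.85% and 5.84%. The SOX motif was in 19.3% of the members' windows, beside 17.7% of the windows of tested genes and 27.4% of all windows. Of the factors themselves, NRF1 had a log2FC of -0.38 (adjusted p 0.472), GABPA of -0.21, YY1 of -0.25 and ESRRA of 0.05 per the authors' deposited table, and none of these 4 was called.

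**Figure D3:**
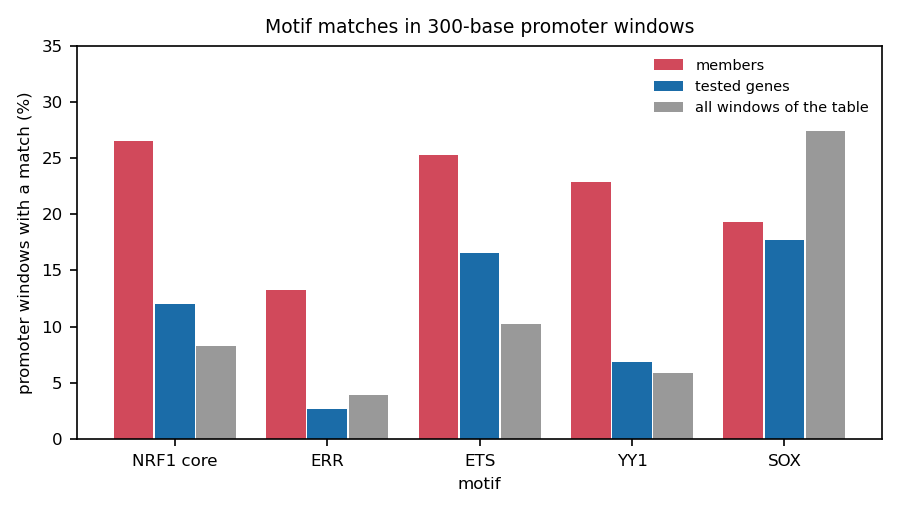
Share of 300-base promoter windows with at least 1 match to each motif (vertical axis, %) for members, tested genes and all windows of the RefSeq table. The members' bars for NRF1, ERR, ETS and YY1 are the tallest of each trio, at 26.5%, 13.3%, 25.3% and 22.9%, while for SOX the members' 19.3% lies between the others.

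The 250 bases before the start of the called members are printed, with SDHB, the 1 member whose window held all of NRF1, ETS, ERR and YY1, for contrast. SDHB was picked for holding the most of these motifs and is not typical. Of the members' 83 windows, 37 held 0 of these 4 motifs and 25 held 1, so few matches are common among the members. Sequences run 5′ to 3′ on the gene's strand, the minus strand in all 4, and capitals mark matches to the motifs above. COX7A2 has 2 RefSeq starts, with windows at chr6:75250299-75250548 and chr6:75243802-75244051. The ATP5SL window is chr19:41439538-41439787 and that of SDHB chr1:17054033-17054282.
COX7A2 first start: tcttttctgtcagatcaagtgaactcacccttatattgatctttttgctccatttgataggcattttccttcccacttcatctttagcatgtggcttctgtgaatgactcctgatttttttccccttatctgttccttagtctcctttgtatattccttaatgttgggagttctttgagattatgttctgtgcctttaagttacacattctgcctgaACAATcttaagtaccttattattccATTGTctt
COX7A2 second start: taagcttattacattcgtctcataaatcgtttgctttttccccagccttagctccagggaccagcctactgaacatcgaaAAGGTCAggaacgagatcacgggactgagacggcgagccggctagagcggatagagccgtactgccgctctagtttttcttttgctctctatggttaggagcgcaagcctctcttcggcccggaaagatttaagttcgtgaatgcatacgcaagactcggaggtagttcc
ATP5SL: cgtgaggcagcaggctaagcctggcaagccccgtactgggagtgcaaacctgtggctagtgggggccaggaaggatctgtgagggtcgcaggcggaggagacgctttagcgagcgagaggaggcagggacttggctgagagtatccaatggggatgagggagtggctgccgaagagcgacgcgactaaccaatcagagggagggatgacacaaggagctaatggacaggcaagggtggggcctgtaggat
SDHB: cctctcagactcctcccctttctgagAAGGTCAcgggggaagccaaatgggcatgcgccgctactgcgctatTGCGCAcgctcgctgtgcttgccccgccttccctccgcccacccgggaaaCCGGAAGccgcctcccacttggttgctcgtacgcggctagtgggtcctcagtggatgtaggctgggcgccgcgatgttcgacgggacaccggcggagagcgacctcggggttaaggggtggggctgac
The first COX7A2 window is poor in G and C, at 36.4%, and holds 2 SOX motif matches, 33 and 8 bases before the start. The second is 50.4% G and C and holds an ERR match 170 bases before the start. The ATP5SL sequence is 60.8% G and C and has no match in the part printed, with a SOX motif after the start. The SDHB sequence, 66.4% G and C, holds ERR, NRF1 and ETS matches 224, 178 and 128 bases before the start, and its YY1 match lies after the start. A match describes letters in these windows and does not show a bound site. SOX9 binding data were not analysed here.

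The members with the lowest log2 fold changes, ATP5SL, COX7A2 and NDUFB5, had larger standard errors than genes counted at the same level. Each tested gene's standard error was divided by the median over the 200 genes nearest in mean count. The 79 members with mean counts of at least 1000 had a median ratio of 0.92, beside 1.00 for all 7757 tested genes at that depth, so the spread between libraries was typically small for them. The ratio was 1.37 for COX7A2, 1.38 for NDUFB5 and 1.21 for ATP5SL. A ratio over 1.3 was found for 2 of the 79 members, COX7A2 and NDUFB5, which is 2.53%, and for 11.3% of all tested genes at that depth. Whether a single library carried these values was not tested, since values per library are not used here.

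**Figure D4:**
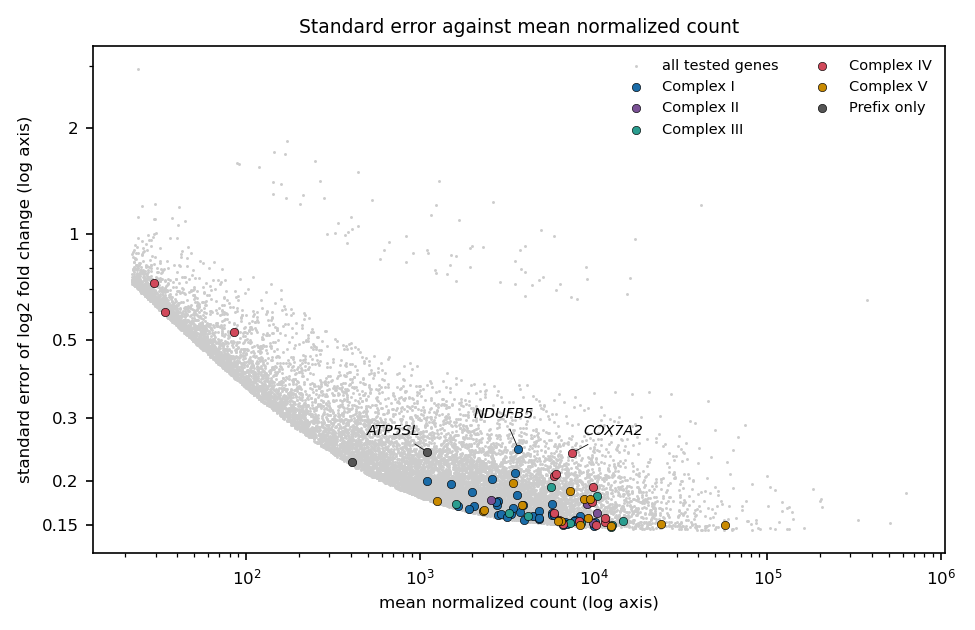
Standard error of the log2 fold change (vertical axis, log scale) against mean normalized count (horizontal axis, log scale). Grey points are all tested genes and coloured points the members by complex. Most members follow the lower edge of the cloud, while COX7A2, NDUFB5 and ATP5SL lie inside it, at 1.37, 1.38 and 1.21 times the median of genes at their counts.

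Complex I, NADH dehydrogenase, had 37 members, all tested, with 0 called and a median log2 fold change of -0.07. The 37 ranged from -0.68 for NDUFB5 to 0.47 for NDUFA5, and 35 had an interval within 1.5-fold. The 7 core subunits of the matrix arm, which carry the flavin, the iron-sulphur clusters and the ubiquinone site, had a median log2 fold change of 0.05, with 6 of 7 positive. The 9 accessory subunits of the matrix arm had a median of -0.09, with 5 of 9 negative. The 20 accessory subunits of the membrane arm had a median of -0.08, with 14 of 20 negative. The differences between these parts were not tested. They are smaller than the standard error of a single gene, but that does not measure the spread of a median. Of all tested genes 52.1% were negative, and of the class with the highest mean counts 64.0%, at a median of -0.07.

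NDUFB5, an accessory subunit of the membrane arm, stood at 62.4% of control per the authors' deposited table (95% interval 44.6% to 87.1%); the adjusted p was 0.15. NDUFA5, an accessory subunit of the matrix arm, stood at 139% of control per the authors' deposited table (95% interval 105% to 182%); the adjusted p was 0.295. Neither passed the threshold over all tested genes. Next to NDUFB5 at the low end of complex I were NDUFA8, at 87.4% of control, and NDUFA12, at 88.6%, per the authors' deposited table. At the high end, below NDUFA5, NDUFB10 of the membrane arm stood at 116% of control per the authors' deposited table. NDUFV1, which binds NADH, had a log2FC of 0.10 (95% interval -0.20 to 0.39) per the authors' deposited table, where its mean normalized count was 10129. NDUFS1, the largest iron-sulphur subunit, had a log2FC of 0.05 (95% interval -0.24 to 0.34) per the authors' deposited table.

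Complex II, succinate dehydrogenase, has 4 subunits, and 0 of 4 were called. SDHA, the flavoprotein that oxidises succinate, had a log2FC of 0.25 (95% interval -0.08 to 0.59) with an adjusted p of 0.655 per the authors' deposited table. SDHA may share reads with its copies SDHAP1, SDHAP2 and SDHAP3, which are also in the table, so its value is uncertain. SDHB, the iron-sulphur subunit, had a log2FC of 0.04 (95% interval -0.26 to 0.34) per the authors' deposited table. SDHC, a membrane anchor, had a log2FC of -0.30 (95% interval -0.64 to 0.05) with an adjusted p of 0.556 per the authors' deposited table. SDHD, the other anchor, had a log2FC of -0.05 (95% interval -0.37 to 0.26) per the authors' deposited table. The intervals of all 4 subunits include no change and overlap one another. Overlap of intervals does not compare genes with each other, and differences between the subunits were not tested.

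Complex III, the cytochrome bc1 complex, had the narrowest range of the complexes: its 10 members, all tested, had log2FCs between -0.14 and 0.18, 0 were called, and all 10 intervals lay within 1.5-fold. CYC1, the cytochrome c1 haem protein, stood at 91.4% of control per the authors' deposited table (95% interval 74.6% to 112%), and UQCRFS1, the Rieske iron-sulphur protein, at 96.2% (75.3% to 123%). UQCRC2, a core protein, stood at 99.7% of control per the authors' deposited table (95% interval 80.9% to 123%). Among the small subunits UQCRQ had the lowest log2 fold change, -0.14, and UQCR10 the highest, 0.18, followed by UQCR11 with 0.11, per the authors' deposited table. UQCRH and its near-identical copy UQCRHL had log2FCs of 0.04 and 0.14 per the authors' deposited table, and because they may share reads neither value is certain.

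Complex IV had 18 listed members, 15 of them tested, with 1 fall, COX7A2, 0 rises and a median of -0.03. The 11 ubiquitous subunits ranged from -0.81 for COX7A2 to 0.08 for NDUFA4, a protein once assigned to complex I and now counted with complex IV. COX8A, the common form of subunit 8, stood at 79.5% of control per the authors' deposited table (95% interval 61.3% to 103%); the adjusted p was 0.547. COX5B, a subunit that binds zinc, stood at 84.0% of control per the authors' deposited table (95% interval 63.4% to 111%). COX6A1 and COX7C, the members of complex IV with the largest counts, had log2FCs of -0.03 and 0.07 per the authors' deposited table, with intervals within 1.5-fold. The main form of subunit 4, COX4I1, had a log2FC of -0.03 (95% interval -0.33 to 0.27), and COX6B1 of 0.06 (95% interval -0.24 to 0.35), per the authors' deposited table.

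The tissue isoforms of complex IV were close to the detection limit. COX4I2, the lung and hypoxia form, COX6A2 of heart and muscle, and COX8C of testis had mean normalized counts of 0.475, 6.39 and 0.527 per the authors' deposited table and were not tested. The ATP5L copy ATP5L2 of complex V was also not tested, at 6.63 per the authors' deposited table. COX6B2, the testis form of subunit 6b, had a log2FC of 0.22 per the authors' deposited table, with an interval from -0.82 to 1.25 at a mean normalized count of 84.4. NDUFA4L2, a hypoxia-induced relative of NDUFA4, had a log2FC of -0.10 per the authors' deposited table, with an interval from -1.53 to 1.32 at a mean normalized count of 29.5. At these counts a change of 1.5-fold in either direction was not detectable.

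Complex V had 16 listed members, 15 of them tested, with 0 called, a median of -0.02 and a range from -0.29 to 0.21. The 5 subunits of the F1 part, which makes ATP, had a median of -0.05. ATP5B and ATP5A1, the beta and alpha subunits that form the catalytic ring, stood at 94.5% (95% interval 77.1% to 116%) and 98.7% (80.5% to 121%) of control per the authors' deposited table. ATP5D, a subunit of the central stalk, had a log2FC of 0.21 (95% interval -0.11 to 0.53) per the authors' deposited table, the highest of complex V. ATP5H of the peripheral stalk had a log2FC of 0.15 and ATP5J2 of the membrane part of -0.11 per the authors' deposited table. The 4 peripheral stalk subunits had a median of 0.04 and the 3 accessory membrane subunits one of -0.07.

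The c ring, which turns in the membrane as protons pass, is built from 1 mature protein encoded by 3 genes. ATP5G1 had a log2FC of -0.29 (95% interval -0.64 to 0.06) with an adjusted p of 0.582 per the authors' deposited table. ATP5G2 had a log2FC of 0.17 (95% interval -0.19 to 0.54) and ATP5G3 of -0.14 (95% interval -0.43 to 0.16) per the authors' deposited table. The 3 intervals overlap and each includes no change, but overlap does not compare the genes, and differences between them were not tested.

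The genes around the respiratory chain were taken from lists for assembly, electron carriers, the tricarboxylic acid cycle and mitochondrial DNA expression, 94 genes in all. Of the 93 tested, 0 rose and 0 fell at an adjusted p under 0.05 by the authors' DESeq2 test. Over all tested genes 1.81% were called, so 0 of 93 is near the background. An unadjusted p under 0.05 was reached by 8 of the 93, and by 11.1% of all tested genes. The median log2 fold change of the 93 was 0.01. The 49 assembly factors, all tested, had a median of -0.03. TIMMDC1 and NDUFAF4, assembly factors of complex I, had log2FCs of 0.48 (adjusted p 0.322) and -0.40 (adjusted p 0.347) per the authors' deposited table. Of the other assembly factors, UQCC3 of complex III had a log2FC of -0.43, BCS1L of complex III of -0.30 and SCO1 of complex IV of -0.21 per the authors' deposited table. COX15 of complex IV had 0.21, SDHAF4 and SDHAF3 of complex II had 0.38 and 0.29, and ATPAF2 and TMEM70 of complex V had 0.36 and -0.32 as log2FCs per the authors' deposited table.

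Cytochrome c itself, CYCS, had a log2FC of -0.36 with a standard error of 0.17 and an adjusted p of 0.391 per the authors' deposited table. COQ5, a methyltransferase of ubiquinone synthesis, had a log2FC of -0.57 with an adjusted p of 0.308 per the authors' deposited table. In the tricarboxylic acid cycle the smallest p-values were those of IDH2 and IDH3A, isocitrate dehydrogenases, with log2FCs of 0.34 and -0.26 per the authors' deposited table. The cycle's 14 genes had a median of 0.06. The 16 tested genes of mitochondrial DNA expression had a median of -0.12, with 11 of 16 negative. For all tested genes the median was -0.02, with 52.1% negative. TFAM, which packages mitochondrial DNA and starts its transcription, had a log2FC of -0.72 (standard error 0.22) and did not pass, at an adjusted p of 0.0554 per the authors' deposited table. TFB2M, which opens the mitochondrial promoters with it, had a log2FC of -0.48 with an adjusted p of 0.406 per the authors' deposited table.

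**Figure D5:**
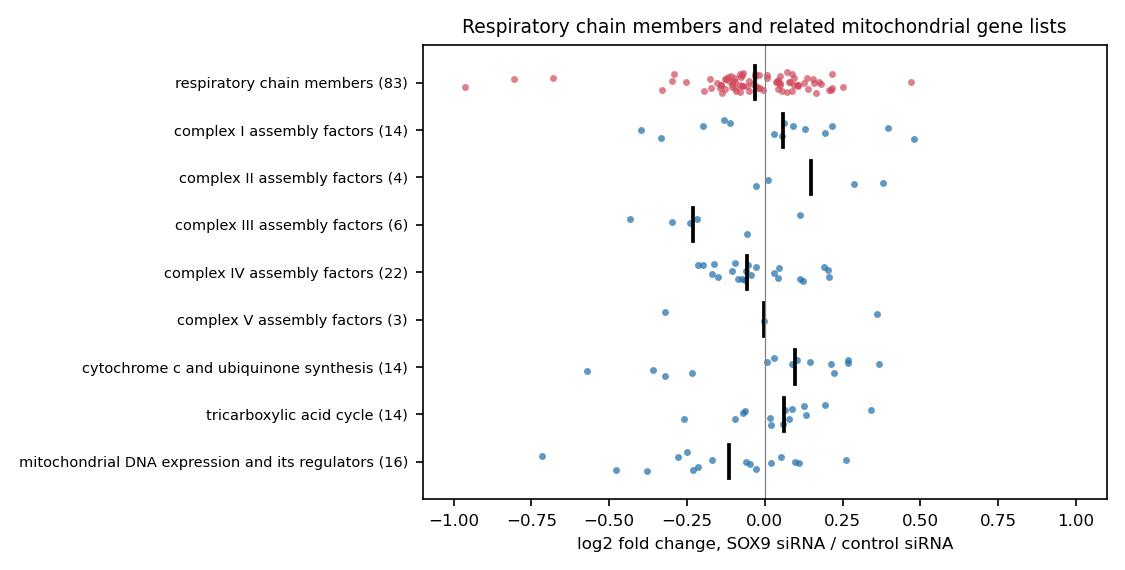
Log2 fold change, SOX9 siRNA over control siRNA (horizontal axis), of the tested respiratory chain members (red) and of the tested genes of 8 related lists (blue). Each point is a gene, vertical scatter has no meaning, black bars are medians, and list sizes stand in brackets. Medians run from -0.23 for the 6 complex III assembly factors to 0.15 for the 4 complex II assembly factors, and the members' median is -0.03.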

How the data were processed

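RNA was measured in PANC-1 cells, 2 libraries with SOX9 siRNA and 2 with control siRNA. HISAT2 2.0.5, featureCounts and DESeq2 1.18.1 are named in the submitters' processing notes, which list hg19 and mm10 without a role. Strand settings and the treatment of reads with several matches were not given in the sources used here. Overlapping genes, and members with processed pseudogenes, are therefore uncertain. The mean normalized count is a signal that the authors averaged over libraries, per the file headers. The authors' log2 values are the fold change and standard error, the Wald statistic is the authors' score, and the p-value, raw and adjusted, is as deposited by the authors. The depth of single libraries is not used here.

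The authors' adjusted p is given for 14063 of 19830 genes. The other 5767 had mean counts of 21.9 or less. Recomputing the Wald p and the Benjamini-Hochberg adjustment gave the deposited values to within 2.83e-15 and 9.44e-15. Members, complexes and lists were chosen with earlier results of these data known. Genes were named by rule: called members, all of complex II, the 3 lowest and 3 highest, the 2 smallest p and the 2 largest mean counts of each other complex, isoform families, untested members, and the 2 smallest p of each list. A member that this rule names is left out of the text and of the plot of single members, and stays in the counts and medians. EPCAM, CDH1, CD14, gene neighbours and the factors of the motifs searched were singled out after their values were seen. Current symbols, gene order and promoters came from RefSeq tables (GRCh38.p14), and the gene table held all 87 members. Python 3.11.15, pandas 2.3.3, numpy 2.4.6 and scipy 1.17.1 were used, and the steps were tested on simulated data. Alternatives were other filters on mean count, centring, other thresholds, an empirical null and other member sets.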

Additional observations from a re-analysis of the deposited data

How the results depend on the processing

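The count of 2 members called, both lower, became 1 without a filter on mean count and 1 with fold changes centred on the median. It was 1 of 78 with structural subunits alone, beside 1.81% of all tested genes. At an adjusted p under 0.01 it was 1, where 0.775% of all tested genes were called. The member called was COX7A2 with structural subunits alone and ATP5SL under the other 3. The share of all genes called under the other filters and centring was not computed. Those counts are therefore not read as particular to the members. An empirical null subtracted the median from the Wald statistic and divided it by its robust spread of 1.13. With p-values from this null, 0 members were called, and 96 of all 14063 tested genes. In an alternative chosen after seeing the data, the count without ATP5SL and COX7A2 was 0, and the median of the other 81 members was -0.03. At an adjusted p under 0.1 the count was also 2, or 2.41% of the tested members, while the share of all tested genes called was 2.62%, against 1.81% at 0.05. With a mean count of at least 100, or with the 2 subunits USMG5 and C14orf2 that the rule misses, the count was again 2, and 0 members rose under every alternative run. The median of the members ran from -0.03 to -0.02 over the alternatives. The medians by complex moved by less than the median standard error of 0.16. They lay between -0.07 and 0.02 from the start, so this bound could hardly be exceeded and shows no stability. The median of complex III went from 0.02 to 0.01 with structural subunits alone, and that of complex V from -0.02 to -0.04 without a filter. Centring moves every fold change by 0.02. COX7A2 lost its call under 4 of the settings named above (adjusted p 0.0633 without a filter and 0.0519 after centring), and ATP5SL lost its call under the empirical null alone, with adjusted p from 0.00787 to 0.0124 under the filters and centring. Centring turned the sign of the complex II median, to 0.01 from -0.01; NDUFB5 and NDUFA5 kept their signs and stayed above the threshold under the filters and centring. Leaving out a library was not run, because the table has no values per library. No paired analysis was possible because the columns carry no replicates. Depth limits the 3 tested isoforms with mean counts under 100 and the 4 untested members.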

Other observations

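Gene order was used to set the 3 members with the lowest fold changes beside their neighbours. On the chromosome the tested protein-coding neighbours of COX7A2 are COL12A1 and TMEM30A, with log2FCs of -0.34 (95% interval -1.26 to 0.59) and 0.36 (95% interval -0.06 to 0.78) per the authors' deposited table. The nearest tested neighbour before ATP5SL in RefSeq gene order is BCKDHA, a subunit of branched-chain ketoacid dehydrogenase, with a log2FC of -0.05 (95% interval -0.43 to 0.32) per the authors' deposited table. NDUFB5 lies beside MRPL47, a protein of the mitochondrial ribosome, and USP13, which had log2FCs of -0.24 (95% interval -0.56 to 0.08) and -0.32 (95% interval -0.65 to 0.02) per the authors' deposited table. The nearest tested gene on the other side of ATP5SL, 10 steps away, is the ribosomal protein gene RPS19, with a log2FC of -0.20 (95% interval -0.51 to 0.10) per the authors' deposited table. By the authors' DESeq2 test at an adjusted p under 0.05, 0 of these 6 neighbours were called, beside 1.81% of all tested genes.

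Over all 7757 tested genes with a mean count of at least 1000, genes with a larger standard error for their count also had larger fold changes in either direction, with a Spearman correlation of 0.43 across genes. An estimated fold change scatters more where its standard error is larger, even if nothing changes. A positive correlation therefore says nothing about an effect of the siRNA. The genes also share the same 4 libraries and are not independent, so the correlation is a description. Over the 79 members with a mean count of at least 1000 it was 0.29. Of the 156 called genes at that depth, 26.3% had a standard error over 1.3 times that of genes at the same count, beside 11.3% of all genes at that depth. COX7A2, at 1.37, is among them.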
